A study of Mus musculus with 7 samples.

Results

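The genes described here are 9 markers by which B cells are commonly recognized: Cd79a, Cd79b, Ms4a1, Pax5, Spib, Cd22, Fcer2a, Cr2 and Blk. All 9 were found among the 46603 genes of the count tables, by matching Ensembl identifiers to GENCODE M21 symbols. The genes were selected on their measured level in 1 of the 7 tumor libraries, KO+NM1 library 01, relative to the other 6. That level is therefore a description of how the genes were chosen, and no test is given for it.

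The libraries are RNA-seq of tumors that grew in female, 16-week-old Balb/c nude mice after subcutaneous injection of mouse embryonic fibroblasts (MEFs, from the ATCC line CRL-2752) into the right flank. In the KO cells nuclear myosin 1 (NM1), an isoform of the Myo1c gene, had been deleted with CRISPR/Cas9. The KO+NM1 cells were the same KO cells with NM1, fused to HA and V5 tags, returned by a lentivirus, selected with neomycin and grown as single clones, so that both groups carry the deletion. Each group had 5 mice, observed for up to 30 days according to the labels, and tumors were removed after perfusion with PBS. The tumors were divided into 4 pieces that were homogenized separately, and 3 KO and 4 KO+NM1 libraries were analysed. The labels write of 1 tumor per condition, so the replicates are pieces and every SD and p-value measures the spread between pieces, which may hold no difference between mice.

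B cells make antibodies. Each mature B cell carries a surface immunoglobulin that signals through the CD79A and CD79B chains, and coreceptors such as CD22 and the complement receptor CD21 raise or lower the strength of that signal. The transcription factor PAX5 holds cells in the B lineage and activates many of the other genes on the list. Nude mice lack a normal thymus and most T cells but keep B cells, which gather in the follicles of lymph nodes and spleen. Fibroblasts do not use these genes.

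Total counts per library were between 24088309 and 28326568, and TMM-scaled library sizes between 20239649 (KO+NM1 03) and 30283367 (KO 03). Raw counts are given to show the depth, and libraries are compared in CPM (counts per 1000000 of the TMM-scaled library size). Myo1c, the targeted gene, had 313, 289 and 306 CPM in KO libraries 01, 02 and 03. It had 438, 408, 406 and 382 CPM in KO+NM1 libraries 01 to 04. In CPM the KO libraries were all below the KO+NM1 libraries, with a log2 fold change of -0.43 (SE 0.13, adjusted p = 0.031, edgeR's quasi-likelihood test), in the direction of the labels. Counts per gene do not separate NM1 from the other Myo1c isoforms. KO+NM1 library 01 stood apart from the other libraries of its group: across genes its log2 CPM correlated with theirs at r = 0.855 to 0.861, while those 3 correlated among themselves at r = 0.977 to 0.986.

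The signaling chains of the B cell receptor were the most abundant of the 9 genes per length. Cd79a (ENSMUSG00000003379, GRCm38 chr7:24897381-24902197, + strand), which encodes one chain, had 74, 354 and 214 counts in KO libraries 01, 02 and 03. It had 35294 counts in KO+NM1 library 01, against 45, 97 and 25 in KO+NM1 libraries 02, 03 and 04. Library 01 was thus 105-fold above the highest other library in CPM (1287 against 12.3 in KO 02), while the remaining libraries of the 2 groups overlapped. In bulk tissue a level like this depends both on the number of B cells and on the RNA of each, and the counts cannot tell the number from the content.

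Cd79b (chr11:106311341-106314762, - strand), its partner chain, had 102, 263 and 247 counts in the KO libraries. There were 21491 counts in KO+NM1 library 01 and 38, 74 and 14 in libraries 02 to 04. Its level in library 01 was 85.8-fold that of KO 02, the next library. Blk (chr14:63372836-63417037, - strand), a Src-family kinase that acts at the receptor, had the fewest counts of the 9 in library 01. Its counts were 6, 56 and 43 in KO, 5760 in KO+NM1 library 01 and 0, 10 and 1 in libraries 02 to 04. The 0 and the 1 lie under a limit of 3 counts, which is 0.122 CPM in library 02 and 0.123 CPM in library 04.

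Among the surface proteins, Ms4a1 (chr19:11249675-11266241, - strand) encodes CD20, the target of B cell depleting antibodies. It had 41, 230 and 185 counts in the KO libraries. In KO+NM1 library 01 it had 15703 counts, against 16, 32 and 11 in libraries 02 to 04. Again KO 02 came next, 71.6-fold lower in CPM. Fcer2a (chr8:3681737-3694175, - strand) encodes CD23, the low-affinity IgE receptor of follicular B cells. Its counts were 17, 53 and 33 in KO, 19707 in KO+NM1 library 01 and 16, 45 and 18 in libraries 02 to 04. The 323-fold distance to the next library, KO+NM1 03, was the widest of the 9. The KO libraries and KO+NM1 libraries 02 to 04 covered the same range for Fcer2a. Cr2 (chr1:195136811-195176716, - strand), which encodes the complement receptors CD21 and CD35 of B cells and follicular dendritic cells, had 7, 110 and 51 counts in KO and 15388 in KO+NM1 library 01. In libraries 02 to 04 it had 9, 26 and 6, and library 01 was 147-fold above KO 02.

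Cd22 (chr7:30865402-30880342, - strand), an inhibitory coreceptor that binds sialic acid, departed from the other members. It had 618, 622 and 503 counts in the KO libraries, which were close to each other, and 12, 62 and 14 in KO+NM1 libraries 02 to 04. The 19664 counts in KO+NM1 library 01 stood 33.2-fold above KO 02, the narrowest distance of the 9. The KO libraries did not overlap with KO+NM1 libraries 02 to 04 for this gene.

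Of the transcription factors, Pax5 (chr4:44524757-44710487, - strand) had 17, 116 and 77 counts in KO and 24, 56 and 6 in KO+NM1 libraries 02 to 04. With 17015 counts, KO+NM1 library 01 was 154-fold above the next library in CPM. Spib (chr7:44525993-44532071, - strand), an ETS factor of B cells and plasmacytoid dendritic cells, had 49, 170 and 153 counts in KO. There were 14727 counts in KO+NM1 library 01, 90.9-fold above the next, and 13, 16 and 12 in libraries 02 to 04. For Spib, as for Cd22, every KO library lay above each of KO+NM1 libraries 02 to 04. Genes annotated in overlap with Pax5, Ms4a1 and Cd22 held 221, 0 and 1 counts over all libraries, and the other 6 members overlap no gene. The strand option of the counting is not given in the sources used here.

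**Figure D1:**
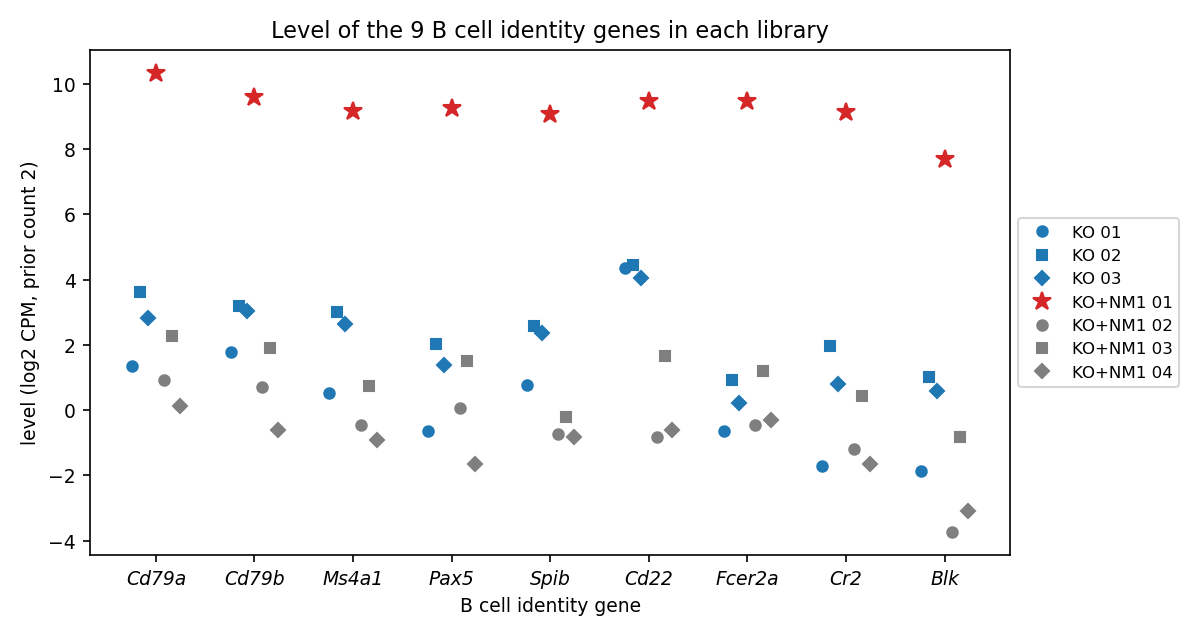
Level of each of the 9 genes (horizontal axis) as log2 CPM with a prior count of 2 (vertical axis), 1 point per library: KO libraries in blue, KO+NM1 library 01 as a red star, KO+NM1 libraries 02 to 04 in grey. The star lies above all other points for every gene, and Cd22 is the gene whose KO points lie highest and closest together.

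RefSeq promoter windows of GRCm38.p6, from 250 bases before to 50 bases after a start, were matched for 6 of the 9 members (8 windows in all) but not for Cd79b, Ms4a1 and Blk. Those of Cd79a, the member with the highest level, and Cd22, the member whose level departed most from the rest, are shown 5′ to 3′ with the motif matches in capitals. The Cd79a window is chr7:24897247-24897546 on the + strand, and that of Cd22 is chr7:30878979-30879278 on the - strand.
Cd79a: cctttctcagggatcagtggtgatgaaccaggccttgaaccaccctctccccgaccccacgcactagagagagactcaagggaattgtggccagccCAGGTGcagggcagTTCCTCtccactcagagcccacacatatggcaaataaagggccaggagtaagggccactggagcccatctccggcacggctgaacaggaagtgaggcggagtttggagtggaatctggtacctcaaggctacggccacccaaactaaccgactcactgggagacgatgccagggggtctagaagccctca
Cd22: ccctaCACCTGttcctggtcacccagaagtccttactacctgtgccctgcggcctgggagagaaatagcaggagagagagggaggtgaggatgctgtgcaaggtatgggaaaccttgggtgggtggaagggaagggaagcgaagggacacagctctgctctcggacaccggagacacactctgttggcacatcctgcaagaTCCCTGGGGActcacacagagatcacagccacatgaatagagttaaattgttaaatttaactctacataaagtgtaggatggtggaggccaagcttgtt
The capitals in Cd79a mark CAGGTG, the E-box bound by E2A proteins, and TTCCTC, the complement of GAGGAA, an ETS core of the kind that PU.1 and SPI-B bind. They begin at positions -154 and -140, counted from the RefSeq start. In Cd22 they mark CACCTG, the complement of the same E-box, at -245, and TCCCTGGGGA, a match to the consensus palindrome of early B cell factor, at -49. In a search of both strands for exact matches, the early B cell factor palindrome was found in 0.904% of 32851 mouse windows and among the members only in Cd22. The E-box occurred in 20.2% of windows and in 4 of the 8 member windows (Cd79a, Cd22, Cr2 and 1 of the 3 of Fcer2a), and GAGGAA in 28.3% of windows and in that of Cd79a. The octamer ATTTGCAT, in 1.74% of windows, was in none of the 8, and TATAAA, in 13.6%, was in 1 window of Fcer2a. A match shows only that the letters are present in the window, and a window without a match can still hold a variant of the motif.

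The excess of the 9 in KO+NM1 library 01 is placed here among all genes. The count, medians and ranks below all use the level by which the genes were chosen. They describe that choice and are no test. Of 19478 genes with at least 10 counts in a library, 876 (4.50%) were at least 4-fold above the highest of the other 6 libraries, measured as a difference in log2 CPM, and all 9 members were among them, as their selection implies. The median log2 difference was 6.70 for the members and -0.81 for all genes. Fcer2a was 2nd of the 19478 genes, behind Glycam1, Pax5 was 12th and Cr2 13th. Cd79a, Blk, Spib, Cd79b and Ms4a1 took ranks 25, 26, 37, 39 and 55, and Cd22 had rank 164.

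**Figure D2:**
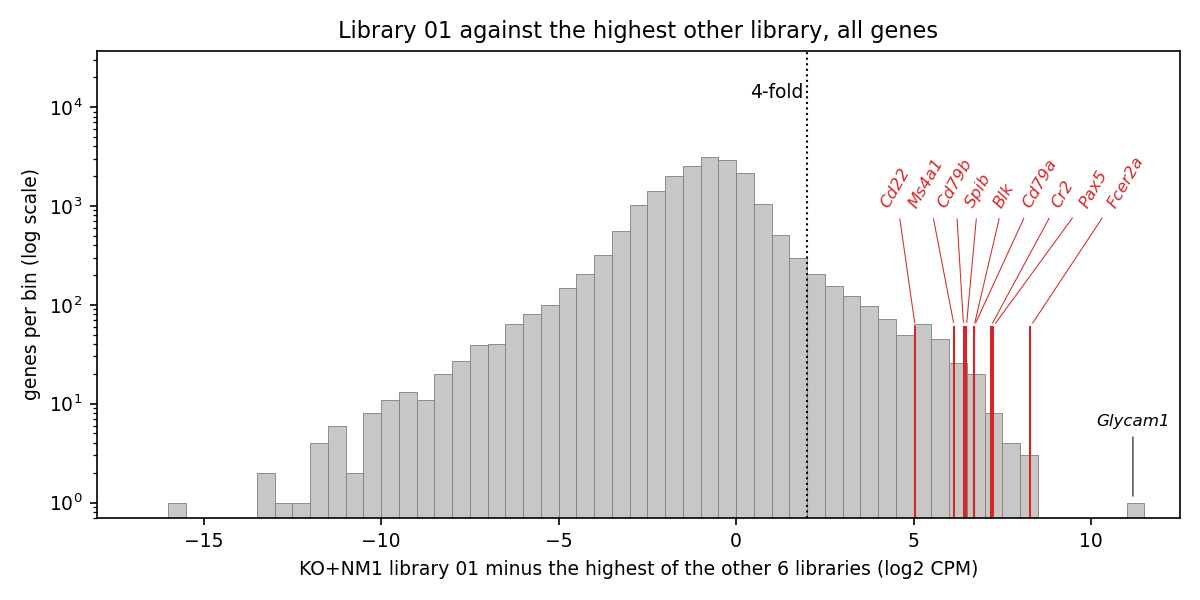
Number of genes (vertical axis, log scale) by the difference in log2 CPM between KO+NM1 library 01 and the highest of the other 6 libraries (horizontal axis, bins of 0.5). The red lines mark the 9 genes, between 5.05 for Cd22 and 8.29 for Fcer2a, all to the right of the dotted 4-fold line, in the right tail of the distribution.

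Levels of different genes were compared as CPM per kb of exon. In KO+NM1 library 01 the order was Cd79a with 884 CPM per kb, Cd79b with 548, Fcer2a with 232, Spib with 187, Cd22 with 142, Ms4a1 with 92.6, Blk with 77.9, Pax5 with 70.1 and Cr2 with 69.2. A single library gives these levels no spread between replicates. In the KO libraries Cd79a with 5.00 ± 3.38, Cd79b with 4.82 ± 2.15 and Cd22 with 3.89 ± 0.525 CPM per kb (mean ± SD, n = 3) stood first and did not differ beyond their spread. Spib followed with 1.46 ± 0.789 and Ms4a1 with 0.833 ± 0.552 CPM per kb. The means of Blk (0.441 ± 0.332), Fcer2a (0.377 ± 0.207), Pax5 (0.269 ± 0.196) and Cr2 (0.236 ± 0.223) each lay within 1 SD of the next. Read piece by piece, Fcer2a was above Pax5 in every KO library. The order of Blk and Fcer2a, and that of Pax5 and Cr2, changed between KO libraries. In KO+NM1 libraries 02 to 04 only Cd79a (1.75 ± 1.36) and Cd79b (1.35 ± 1.10) had means over 1 CPM per kb.

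The 9 genes together took 0.645% of all counts of KO+NM1 library 01 (95% exact binomial interval 0.642% to 0.648%, counting error only). In the KO libraries they took 0.00335%, 0.00744% and 0.00532%, and in KO+NM1 libraries 02 to 04 0.000645%, 0.00165% and 0.000444%. The proportions of the genes within this sum also differed. Cd22 held 66.4%, 31.5% and 33.4% of the members' counts in the KO libraries, but 11.9% in KO+NM1 library 01 and 6.94%, 14.8% and 13.1% in libraries 02 to 04. There were 8.35, 1.76 and 2.35 counts of Cd22 per count of Cd79a in KO, against 0.557, 0.267, 0.639 and 0.560 in the KO+NM1 libraries in order. With Cd22 set aside, Cd79a made up 21.3% to 26.2% of the counts of the other 8 in KO, 24.3% in KO+NM1 library 01 and at least 26.9% in each of libraries 02 to 04. Fcer2a held 5.43%, 3.92% and 3.29% of the 8 in KO, and 13.6%, 9.94%, 12.6% and 19.4% in the KO+NM1 libraries. Library 01 was on the side of its own group for Fcer2a, and for Cd22 among all 9. Other genes went the other way: Blk held 3.97% of the 8 in library 01, 1.92% to 4.29% in KO and 0% to 2.81% in KO+NM1 libraries 02 to 04, and Cd79a in library 01 was inside the KO range and below its own group. The intervals of the sparse libraries are wide (5.79% to 15.6% for Fcer2a in KO+NM1 02).

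**Figure D3:**
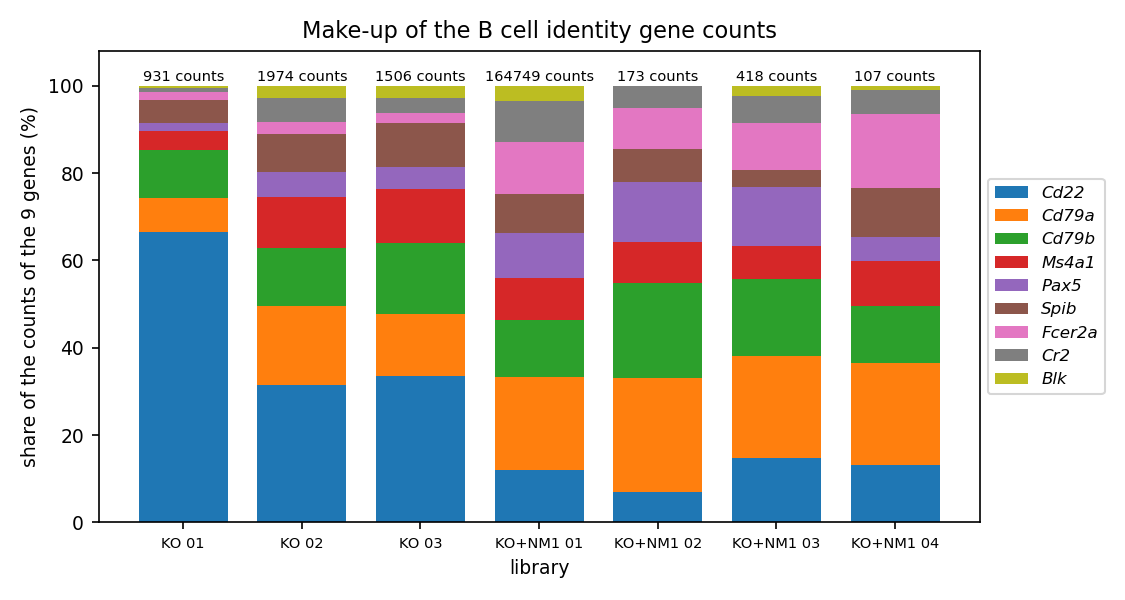
Share of each gene in the summed counts of the 9 genes (vertical axis, percent), 1 bar per library, with that sum written above the bar. Cd22 (blue) takes 31.5% to 66.4% in the KO libraries and 6.94% to 14.8% in the KO+NM1 libraries, and the sums run from 107 to 164749 counts.

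The design asks how tumors with and without NM1 differ. For these 9 genes the answer depended on KO+NM1 library 01, the library on whose level they were chosen. With all 7 libraries, 9 of 9 genes passed the filter on low counts and 0 were called by edgeR's quasi-likelihood test at an adjusted p under 0.05, where 50.2% of 16887 genes were called. The unadjusted p of edgeR was under 0.05 for 1 of them, Fcer2a, and DESeq2 gave no adjusted p for any of the 9. Log2 fold changes (KO minus KO+NM1) ran from -3.20 (SE 2.47) for Cd22 to -7.27 (SE 3.08, adjusted p = 0.0874) for Fcer2a, with a median of -5.47, beside -0.0017 over all genes. Since the level in library 01 chose the genes, these values describe that choice.

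In the 6 libraries other than KO+NM1 01, the test called 3 of 9 genes, all higher in KO, where 35.8% of 16617 genes were called higher in KO. A share of 3 in 9 is near that background. The median log2 fold change of the 9 was 1.72, beside -0.0022 for all genes. Cd22 was at 1.38 ± 1.46 CPM in KO+NM1 libraries 02 to 04 and 19.6 ± 2.65 CPM in KO (n = 3 each), a log2 fold change of 3.73 (SE 0.68, adjusted p = 0.00217, edgeR). Spib was at 0.604 ± 0.162 CPM in KO+NM1 and 4.20 ± 2.26 CPM in KO, a log2 fold change of 2.67 (SE 0.54, adjusted p = 0.00351, edgeR). Ms4a1, with 0.895 ± 0.603 and 5.16 ± 3.41 CPM, had a log2 fold change of 2.41 (SE 0.75, adjusted p = 0.0223, edgeR), but KO 01 fell below KO+NM1 03 and the groups overlapped. The call of Ms4a1 was lost without KO 02, KO 03, KO+NM1 02 or KO+NM1 04, and those of Cd22 and Spib were kept without any 1 of the 6.

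The remaining 6 genes were not called. Cd79b was at 6.90 ± 3.07 CPM in KO and 1.93 ± 1.58 CPM in KO+NM1 libraries 02 to 04, a log2 fold change of 1.72 (SE 0.67, adjusted p = 0.0526, edgeR). Blk had 2.68 (SE 1.22), Cr2 1.49 (SE 1.00), Cd79a 1.39 (SE 0.73) and Pax5 0.72 (SE 0.92) on the same log2 scale, with adjusted p between 0.0813 and 0.502. Fcer2a had 1.17 ± 0.641 CPM in KO and 1.20 ± 0.883 CPM in KO+NM1, a log2 fold change of -0.16 (SE 0.63, adjusted p = 0.826, edgeR). Every KO library was above every one of KO+NM1 libraries 02 to 04 for 2 of 9 genes, Cd22 and Spib, against 43.0% of all genes tested. Between the comparisons with 7 and with 6 libraries, 8 of 9 genes changed sign. The negative values with all 7 libraries follow from the choice of the genes by library 01, so the change is no result about NM1. The comparisons share 6 libraries, so only the values of each are given.

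**Figure D4:**
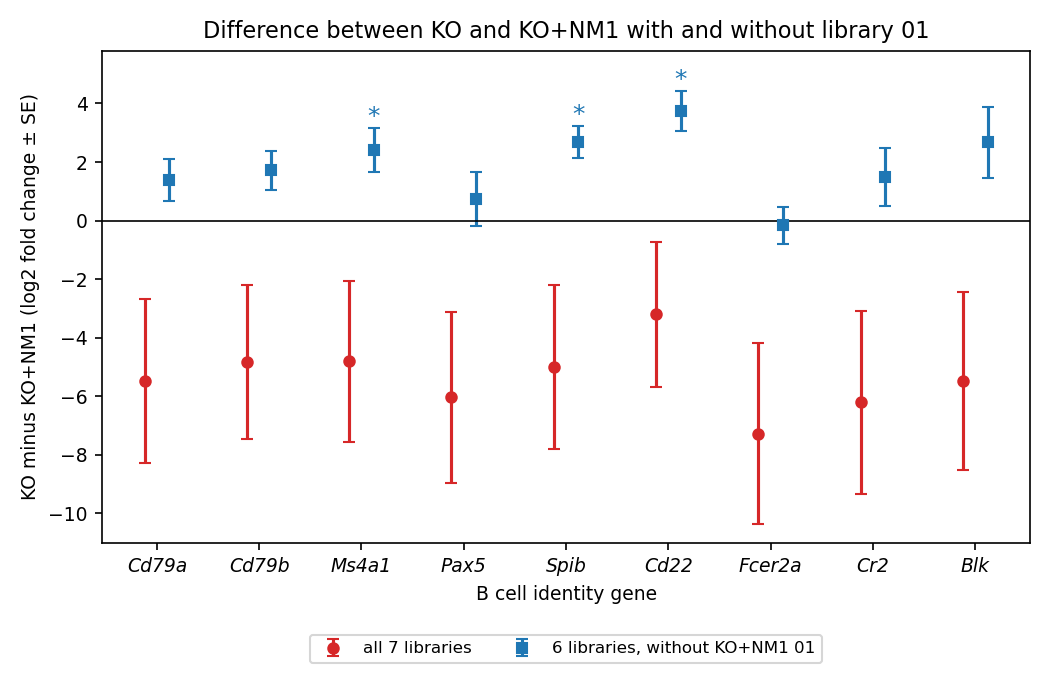
Log2 fold change (KO minus KO+NM1, vertical axis) with its SE for each gene (horizontal axis), from all 7 libraries in red and from the 6 libraries without KO+NM1 01 in blue, with an asterisk at an adjusted p under 0.05. All red points lie below 0, all blue points but that of Fcer2a lie above it, and the red error bars, which include library 01, are the longer ones.

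The single pieces kept a common order across the genes. KO 02 was the highest KO library for 9 of 9 genes and KO 01 the lowest for 8 of 9, the exception being Cd22. KO+NM1 03 was the highest of KO+NM1 libraries 02 to 04 for 9 of 9. How many of all genes share this order was not counted. The genes are read in the same pieces, so they are not independent observations of it. The summed skeletal muscle markers (6 genes) followed the same order within KO, with 1920 CPM in KO 01, 17069 in KO 02 and 13394 in KO 03, and so did the adipocyte markers (6 genes), with 21.4, 91.8 and 42.8 CPM. Immunoglobulin constant genes and some other lists followed it too, but many did not. T cell (316, 278 and 339 CPM), macrophage (3757, 3879 and 4294), endothelial and fibroblast sums and B cell receptor signaling were highest in KO 03. The other mature B cell genes were highest in KO 01 (3755, 3604 and 3669 CPM). Within KO+NM1 libraries 02 to 04, library 03 had the most adipocyte marker CPM (21289, against 19164 and 13212) and the least of fibroblast markers (9 genes, 8019 against 12213 and 14033). The part of these tissues in the order of the B cell genes was not tested.

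Other genes of the B lineage, in lists of their own, were mostly high in KO+NM1 library 01 as well. Of 23 genes of B cell receptor signaling, 12 were at least 4-fold above the highest other library. Ptpn6, a phosphatase of many blood cells, had 19826 counts against 392 to 4331 elsewhere, and Cd81, which most cells use, had 7201 against up to 11532. Of 20 other surface and homing genes of mature B cells, 17 were past 4-fold. Among the 3 most abundant of these, Ltb (lymphotoxin beta) had 20027 counts against 55 to 1061 and Ly6d 9692 against 38 to 2008, and Cd74, the invariant chain of all cells with MHC class II, had 213161 against up to 106904 and did not pass. These lists are read in the same library and were drawn up with its level known. They describe that library and are no test of the B cell label of the 9 genes.

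Of 14 transcription factors of the B lineage, 6 were past 4-fold in library 01. Pou2af1, a coactivator of octamer factors, had 14368 counts there and 8 to 176 elsewhere. Tcf3 (8562 counts, against 1823 to 8126) and Irf8 (16696, against 451 to 6688) were below the 4-fold mark. Ebf1, which in B cells acts upstream of Pax5 and is also a factor of fat and stromal cells, did not follow the members. It had 6329 counts in library 01, but 4971, 3908 and 4892 in KO+NM1 libraries 02 to 04, and 178, 226 and 333 in KO.

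Immunoglobulin constant genes were past 4-fold in library 01 for 10 of the 11 with enough counts. Ighm had 57009 counts there, Ighd 43105 and Igkc 37221, and Ighd did not exceed 407 elsewhere. Ighm held 1935 to 3001 counts in KO and 4809 to 6497 in KO+NM1 libraries 02 to 04. Unlike that of Cd79a, its level was lower in KO in the 6-library comparison (log2 fold change -1.56, SE 0.20, adjusted p = 0.000382, edgeR). Of 5 constant genes tested there, Ighm was the 1 called lower in KO, and 2 were called higher, beside 35.8% of all genes. The 2 were Igkc (log2 fold change 1.89, adjusted p = 0.0273, edgeR) and Ighg2c (4.01, adjusted p = 0.00422, edgeR). Igkc had 141 to 471 counts in KO and 33 to 93 in KO+NM1 libraries 02 to 04, where Ighg2c had 1 count in each. Within library 01 the class-switched genes were far below Ighm, Ighd and Igkc: Ighg3 286, Igha 267, Ighg2b 233, Ighg2c 191 and Ighg1 3 counts. All of these but Ighg1 were still higher there than in any other library, and Ighe was at 0 in all libraries.

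By stage, 7 of 8 genes of pro-B and pre-B cells were past 4-fold, but 6 of the 7, the recombination and surrogate light chain genes, reached only 17 to 115 counts in library 01, beside 17015 for Pax5. Rag1 had 115, Dntt 105, Igll1 and Vpreb1 93 each, Vpreb2 18 and Rag2 17. In the other 6 libraries each of these genes had 4 counts or fewer. They met the minimum of 10 counts only through library 01. Their place past 4-fold there was therefore close to fixed in advance, and the count of 7 is no support. Il7r had 1493 counts against up to 127. Germinal center genes showed 1 of 6 past 4-fold, Rgs13 with 21 counts, which also met the minimum only through library 01. Marginal zone and B-1 genes showed 2 of 8, Dtx1 with 3609 counts and Fcrl5 with 246. Of the plasma cell genes 2 of 8 passed, Mzb1 with 2291 counts and Jchain with 1608. Prdm1, the regulator of plasma cells, had 5.11 CPM in library 01, 3.99 to 4.07 in the rest of its group and 14.4 to 17.4 in KO. Sdc1, a surface proteoglycan of plasma and epithelial cells, had 30.3 CPM in library 01, 36.8 to 75.2 in the rest of its group and 54.7 to 103 in KO.

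In shape over the 7 libraries, the genes most like the 9 were found by the root mean square difference between their log2 CPM, centred on the gene's mean, and the mean of the members. Of 19131 candidates, the nearest 10 included Ffar1 (0.39), Fcrl1 (0.40), Pou2af1 (0.48), Siglecg (0.52), H2-Eb2 (0.56), Fcrla (0.59), Fcmr (0.65), Gm42870 (0.65) and Tnfrsf13c (0.72). The members' own distances to their mean ran from 0.23 for Cd79a to 0.94 for Fcer2a and 1.33 for Cd22. The mean itself was 7.32 in KO+NM1 library 01, 0.61 in KO 02, 0.06 in KO 03 and between -0.96 and -2.98 in the other 4. Library 01 dominates this measure, which is over 7 libraries and describes likeness only.

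**Figure D5:**
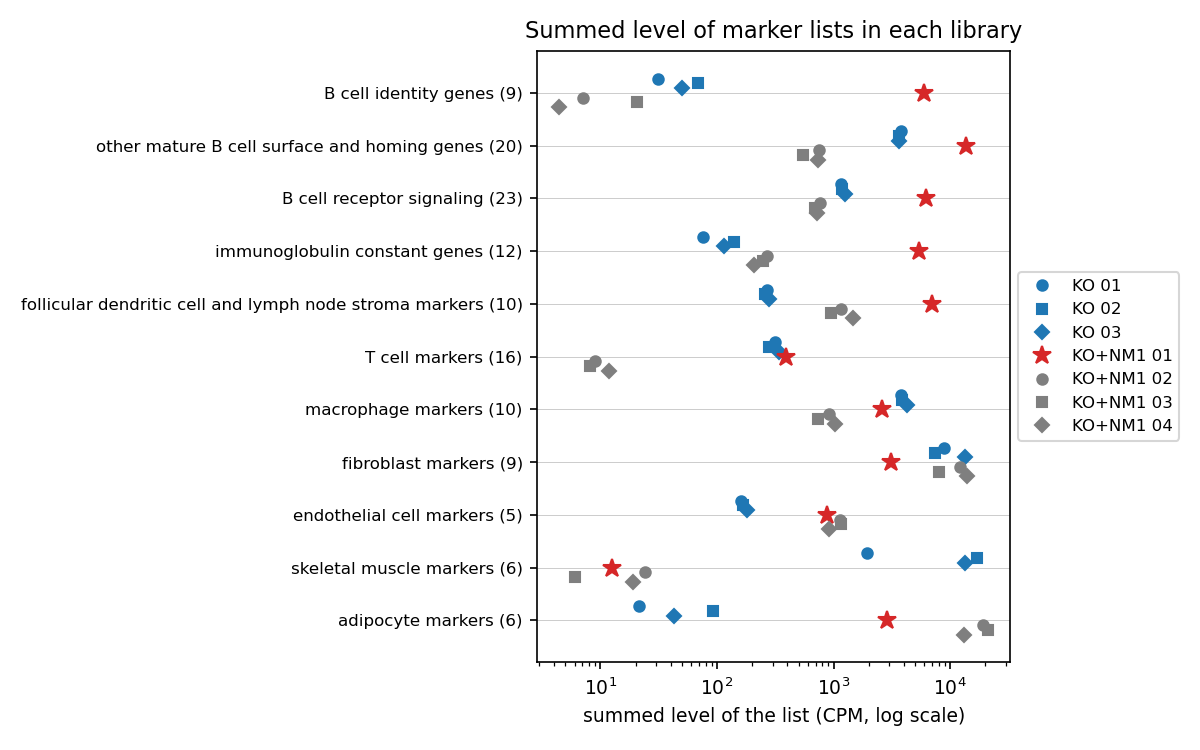
Summed TMM-scaled CPM of the genes of each list (horizontal axis, log scale, number of genes in parentheses) in each library, with KO in blue, KO+NM1 library 01 as a red star and KO+NM1 libraries 02 to 04 in grey. For the 9 B cell genes the star is at 6009 CPM and the others at 4.40 to 68.6. For T cell markers the star, at 392 CPM, lies beside the KO points in sum, though not for every gene.

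Markers of other cells moved with the members in KO+NM1 library 01 to different extents. Of 10 markers of follicular dendritic cells and lymph node stroma, 6 were past 4-fold. Glycam1, a ligand of L-selectin made by high endothelial venules, had 70837 counts against 0 to 21 elsewhere, and its excess was the widest of all 19478 genes. Clu had 73016 against 179 to 8423. Mfge8, with 44066 against 4784 to 26135, was not past 4-fold, and neither were Lyve1, Prox1 and Pdpn. Pdpn was lower in library 01 (13.9 CPM) than in KO (41.4 to 69.1 CPM). Chst4, a sulfotransferase of the same venules, had 581 counts against 0 or 1, and Madcam1, an addressin, 743 against 1 to 9. Both met the minimum of 10 counts only through library 01, so their place past 4-fold is no support. The summed level of the list was 7043 CPM in library 01, 259 to 278 in KO and 946 to 1457 in KO+NM1 libraries 02 to 04. Of 11 cytokine genes that act on B cells, 4 were past 4-fold: Ccl21a, with 12271 counts against 21 to 1060, Ccl19, with 2154 against 1 to 19, Lta and Il7. Cxcl13, the chemokine that draws B cells to follicles, had 10392 counts in library 01, 1392 to 4434 in KO and 51 to 112 in KO+NM1 libraries 02 to 04.

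T cell markers had a summed level of 392 CPM in library 01, 278 to 339 in KO and 8.20 to 11.8 in KO+NM1 libraries 02 to 04. Of the 16, 1 was past 4-fold in library 01, Cd2, which mouse B cells also carry, with 2384 counts against 33 to 433. Cd3e was at 170 counts in library 01, 574 to 726 in KO and 0 or 1 in KO+NM1 libraries 02 to 04. Cd3d, Cd3g and Trac were likewise lower in library 01 than in KO. In library 01, 6 of the 16 markers were highest, Trbc1 among them (524 counts, against 221 to 419 in KO). In the 6-library comparison 16 of 16 T cell markers were called higher in KO, beside 35.8% of all genes. NK cell markers summed to 67.8 CPM in library 01, 59.1 to 72.2 in KO and 4.55 to 7.57 in KO+NM1 libraries 02 to 04, with 1 of 6 past 4-fold (Ncr1). Plasmacytoid dendritic cell markers, a lineage that shares Spib, summed to 498 CPM in library 01, 414 to 631 in KO and 326 to 368 in KO+NM1 libraries 02 to 04, with 1 of 6 past 4-fold (Siglech). Bst2, Tcf4 and Irf7 made up most of these sums, and none of them was highest in library 01. The other 3 were highest there: Siglech (36.7 CPM, against at most 7.61), Ccr9 (6.27, against at most 1.65) and Klk1 (5.98, against at most 2.61). Conventional dendritic cell markers, 0 of 7 past 4-fold, summed to 155, 89.9 to 116 and 48.3 to 50.9 CPM.

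Of 10 macrophage markers 0 were past 4-fold. Their sum in library 01 (2588 CPM) lay between KO (3757 to 4294) and KO+NM1 libraries 02 to 04 (735 to 1025). Lyz2 gave 1898 CPM of that sum and was the 1 marker highest in library 01. C1qa, at 143 CPM there, lay near KO+NM1 libraries 02 to 04 (94.2 to 124) and below KO (851 to 977). Adgre1 and Mrc1 were lowest in library 01. Fibroblast markers, the lineage of the injected cells, had 0 of 9 past 4-fold and were present in all 7 libraries, with the lowest sum in library 01 (3078 CPM, against 7411 to 14033). Endothelial markers, 0 of 5, summed to 878 CPM in library 01, 161 to 180 in KO and 918 to 1159 in KO+NM1 libraries 02 to 04. Skeletal muscle markers, 0 of 6, summed to 12.7 CPM in library 01 and 6.08 to 24.3 in the rest of its group, with Myh4, a fast myosin, at 2 counts or fewer in each. Adipocyte markers, 0 of 6, summed to 2872 CPM in library 01, against 13212 to 21289 in KO+NM1 libraries 02 to 04 and 21.4 to 91.8 in KO. The part of these cell types and of lymphoid stroma in the level of the B cell genes was not tested.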

How the data were processed

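RNA was sequenced from 3 KO and 4 KO+NM1 tumor pieces. The authors deposited raw counts per Ensembl gene, without normalization. Their processing notes name Trimmomatic 0.36, FastQC, HISAT2 2.0.4, SAMtools 0.1.19, HTSeq and the GRCm38 build. The annotation release and strand option are not given in the sources used here. Of 46603 genes, 46005 were given a symbol from GENCODE M21. The members and all gene lists were chosen with earlier results of these data known.

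Counts were analysed in R 4.3.3 with edgeR 4.0.16: filterByExpr (minimum count 10), TMM, glmQLFit and glmQLFTest without covariates, and Benjamini-Hochberg adjustment over all genes tested, called at an adjusted p under 0.05. The fit was run on all 7 libraries and on the 6 without KO+NM1 01. The SE was the size of the log2 fold change over the square root of F. Levels were TMM-scaled CPM, on the log2 scale with a prior count of 2, and per kb of the union of GENCODE M21 exons where genes were compared. Shares carry exact Clopper-Pearson 95% intervals, for counting error only. Named genes were the 9 members, the 3 most abundant of each other list per kb, any in a count of 5 or fewer, the 10 most alike in profile, and Myo1c. Others named for contrast (such as Chst4, Madcam1, Cxcl13, Prdm1 and the class-switched immunoglobulin genes) were picked after their values were seen. Not every gene that the rule picks is reported here. No library repeated another, since chi-square per degree of freedom was 35.2 or more in each of the 21 pairs (genes with 20 or more counts in both libraries together). Alternatives were the size factors of DESeq2, library size alone, mitochondrial genes left out of library size, a prior count of 0.5, every gene with at least 1 count, the Wald test of DESeq2 1.42.0, the replicate number as a block, and each library left out in turn.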

Additional observations from a re-analysis of the deposited data

Results flagged for a closer look

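Dixon's ratio, the gap between the outermost library and its neighbor over the whole range of the 4 KO+NM1 libraries, was computed for the log2 summed CPM of the 19 other lists. The 9 genes were left out of it, since they were selected on their level in library 01. It passed its 95% critical value for 7 of 19 lists, each time with library 01 outermost, where chance flags about 1 group in 20. These were B lineage transcription factors (0.960), conventional dendritic cell markers (0.956), B cell receptor signaling (0.953), immunoglobulin constant genes (0.920), T cell markers (0.906), other mature B cell surface and homing genes (0.901) and cytokines and chemokines that act on B cells (0.856). The lists share that library and were drawn up with its level known, so the ratios describe the library and are not independent of each other.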

How the results depend on the processing

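The 7-library fold changes of 8 genes turned positive in KO without KO+NM1 01, the value that makes up the 6-library comparison. Their negative sign with that library follows from the choice of the genes. With each library left out in turn, the log2 fold change ran from -6.19 to 1.39 for Cd79a, -5.26 to 1.72 for Cd79b, -5.37 to 2.41 for Ms4a1, -6.75 to 0.72 for Pax5, -5.44 to 2.67 for Spib, -3.62 to 3.73 for Cd22, -7.30 to 1.49 for Cr2 and -6.12 to 2.68 for Blk, and the number of genes called from 0 to 3. In the 6-library comparison, leaving out each library gave 2 to 7 called genes, 7 without KO 01 and 6 without KO+NM1 03, and Fcer2a ran from -0.65 to 0.62, at 0.17 without KO 01 and 0.62 without KO+NM1 03. Library size alone gave 6 called genes and 0.28 for Fcer2a, with the median of all genes at 0.37. DESeq2 called 4, Cd79b added. The causes were not tested. The replicate numbers do not pair the samples (correlations of the deviations of same-numbered libraries 0.0802, 0.102 and -0.0165). With the replicate block the 7-library values of Cd79b (0.086), Ms4a1 (0.83), Spib (1.09), Cd22 (1.81) and Blk (0.41) were positive and 0 genes were called, and in the 6-library comparison Fcer2a was 0.057 and 4 genes were called. The median excess of the 9 genes in library 01 stayed between 6.69 and 7.13 on the log2 scale under every alternative run for it. DESeq2 gave no adjusted p for the 9 genes with all 7 libraries, so that alternative has no value. Genes with 3 counts or fewer in a library are not measurable there.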
